A study of Rattus norvegicus with 77 samples.

Results

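The genes described here are 10 Fc receptor and myeloid signalling genes measured in RNA of rat cauda epididymal sperm: Fcer1g, Tyrobp, Fcgr1a, Fcgr2b, Clec7a, Spi1, Itgam, Itgb2, Ptprc and Aif1. They were chosen by name, with earlier results of these data known. The choice was among the 14506 genes for which the array holds a probe set (the probes of 1 transcript) with a single gene symbol. Each of the 10 was represented by 1 probe set. Adult male Fischer 344 rats drank 0.33% 2,5-hexanedione (HD), a toxicant of Sertoli cells, for 3 months (HD, n = 19 arrays), and control rats drank water (water, n = 20). Other rats were exposed in the same way and then kept without HD for 3 months of recovery (HD-recovery, n = 20), with their own controls (water-recovery, n = 18). Rats of the recovery groups were therefore older at sampling, and age and recovery cannot be told apart in a comparison of these groups with the earlier ones. Each rat had 1 array, hybridised with RNA of sperm released from the punctured cauda and treated for a short time with an ammonium chloride buffer that lyses somatic cells. Values are log2 array intensities as deposited, and the number of arrays limits the precision.

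White blood cells of the myeloid line (monocytes, macrophages, neutrophils, mast cells) read bound antibody and microbial sugars through receptors that share short tyrosine motifs called ITAMs. The motif lies in small adaptor chains or in the receptor itself, is phosphorylated when the receptor is engaged, and recruits the kinase Syk. In the epididymis such cells lie in and below the epithelium, while mature sperm carry little RNA of their own. The array measures RNA of the whole preparation, so fewer cells of a type and less RNA per cell cannot be told apart in any value given here. The paper reports a check of sperm purity, in which microscopy showed no somatic cells and ribosomal RNA peaks were absent. Whether the RNA of these genes came from sperm or from other cells was not tested here.

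Of the 10 genes, 3 were found in the RefSeq table of promoters (assembly GRCr8). The part of each promoter window that lies before the annotated gene is shown, because Clec7a and Ptprc varied together from rat to rat and because Spi1, another of the 10, encodes PU.1, a factor of myeloid cells that binds the box GAGGAA. Matches of GAGGAA on either strand are in capitals, 5′ to 3′ on the strand of the gene. Clec7a lies at chr4:164599954-164600077 (minus strand), Ptprc at chr13:52259811-52259996 (minus strand) and Itgam at chr1:192089342-192089495 (plus strand).
Clec7a: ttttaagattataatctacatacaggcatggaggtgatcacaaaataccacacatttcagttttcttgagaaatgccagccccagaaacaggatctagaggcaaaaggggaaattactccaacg
Ptprc: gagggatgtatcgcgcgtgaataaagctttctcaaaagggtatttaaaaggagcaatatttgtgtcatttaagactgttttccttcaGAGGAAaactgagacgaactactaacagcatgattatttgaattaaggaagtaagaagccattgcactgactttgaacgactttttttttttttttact
Itgam: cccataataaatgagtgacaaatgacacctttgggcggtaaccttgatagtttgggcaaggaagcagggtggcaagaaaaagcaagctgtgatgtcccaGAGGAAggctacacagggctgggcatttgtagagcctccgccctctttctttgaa
The Ptprc stretch (186 bases) held 1 match, whose first base lay 99 bases before the annotated gene start, and the Itgam stretch (154 bases) held 1, at 55 bases. The Clec7a stretch (124 bases) held none. Among the first stretches of the same length of all 33469 promoters in the table, the box occurred in 17.9% at the length shown for Ptprc, 15.0% at that for Itgam and 12.3% at that for Clec7a. These matches describe letters and are no measure of binding.

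Arrays of 1 group differed from each other. Each array was correlated with every other array of its group, and the median r ran from 0.83 to 0.98 in HD and from 0.93 to 0.98 across the other 3 groups. In all 10 arrays stood apart from their group, 4 in HD, 1 in water, 3 in HD-recovery and 2 in water-recovery (more than 3 scaled median absolute deviations below the group's median correlation). All 77 arrays were kept. Transcripts that define sperm spanned a wide range. Of the 14 sperm and spermatid markers, Tekt1, a tektin of the tail, had the lowest mean, 6.36 in HD and 6.10 in water, below the median array value of 6.72. Odf1, an outer dense fibre protein of the tail, averaged 13.87 in HD and 14.08 in water, and Prm1, a protamine that packs sperm DNA, averaged 12.70 in HD and 12.94 in water. The files hold no detection calls, so none of the genes below can be called present or absent.

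After 3 months of exposure, the adaptor Fcer1g and the receptor Clec7a were lower in arrays labelled HD than in arrays labelled water. Of the other 8 genes, 7 had lower means in HD that did not pass the test. This direction, taken from the labels, is the opposite of the one the paper gives for Fcer1g and Clec7a, and for nearly all other transcripts of its list that could be matched by name. The paper's qRT-PCR panel, run on other rats, held neither Fcer1g nor Clec7a. At 3 months its signs were those of the paper's arrays for most transcripts and opposite for some, among them Lyz2 and Dcn. Whether the labels or the signs in the paper are turned round cannot be told from the files. HD and water therefore stand for the arrays so labelled, and every sign of HD minus water given here, for the marker genes too, depends on the labels. Both are on a list of altered transcripts that the study drew from the same arrays, and their direction is therefore no independent evidence. Fcer1g, the common gamma chain that carries the ITAM for several Fc receptors, had a lowest, median and highest value of 7.43, 8.10 and 9.56 in HD, against 7.86, 8.86 and 9.69 in water. The groups overlapped, with 16 of 19 HD arrays below the water median and 5 below the lowest water array. Fcer1g averaged 8.22 ± 0.58 (SD, n = 19) in HD and 8.89 ± 0.49 (SD, n = 20) in water, a log2 difference of −0.68 (SE 0.16, 95% confidence interval −1.01 to −0.34), or 1.60-fold lower (limma, q = 0.0427). Clec7a, dectin-1, a receptor for fungal beta-glucan with an ITAM-like motif in its own tail, had a lowest, median and highest value of 6.59, 7.01 and 8.18 in HD, against 6.85, 7.58 and 8.20 in water. Here 17 of 19 HD arrays lay below the water median and 3 below the lowest water array. Clec7a averaged 7.13 ± 0.36 (SD, n = 19) in HD and 7.58 ± 0.33 (SD, n = 20) in water, a log2 difference of −0.45 (SE 0.11, interval −0.66 to −0.23), or 1.36-fold lower (limma, q = 0.0399).

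The q-value is Storey's estimate of the share of false calls over all 29214 probe sets tested, and q under 0.05 was taken as a change. Of all probe sets 0.472% passed in HD against water and 0.455% passed as lower, beside 2 of the 10 genes, both lower. At an unadjusted p under 0.05, 6 of the 10 were lower and none higher, while 4.91% of all probe sets were lower. The median log2 difference of the 10 genes was −0.30, and that of all probe sets 0.01. Because the 10 genes were chosen with earlier results of these data known, these shares and medians describe the set and are no test of it. The calls lay close to the threshold: with each of the 39 arrays left out in turn, Fcer1g and Clec7a each passed in 15 of the 39 fits. Both log2 differences stayed negative in every such fit, between −0.75 and −0.63 for Fcer1g and between −0.51 and −0.41 for Clec7a.

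**Figure D1:**
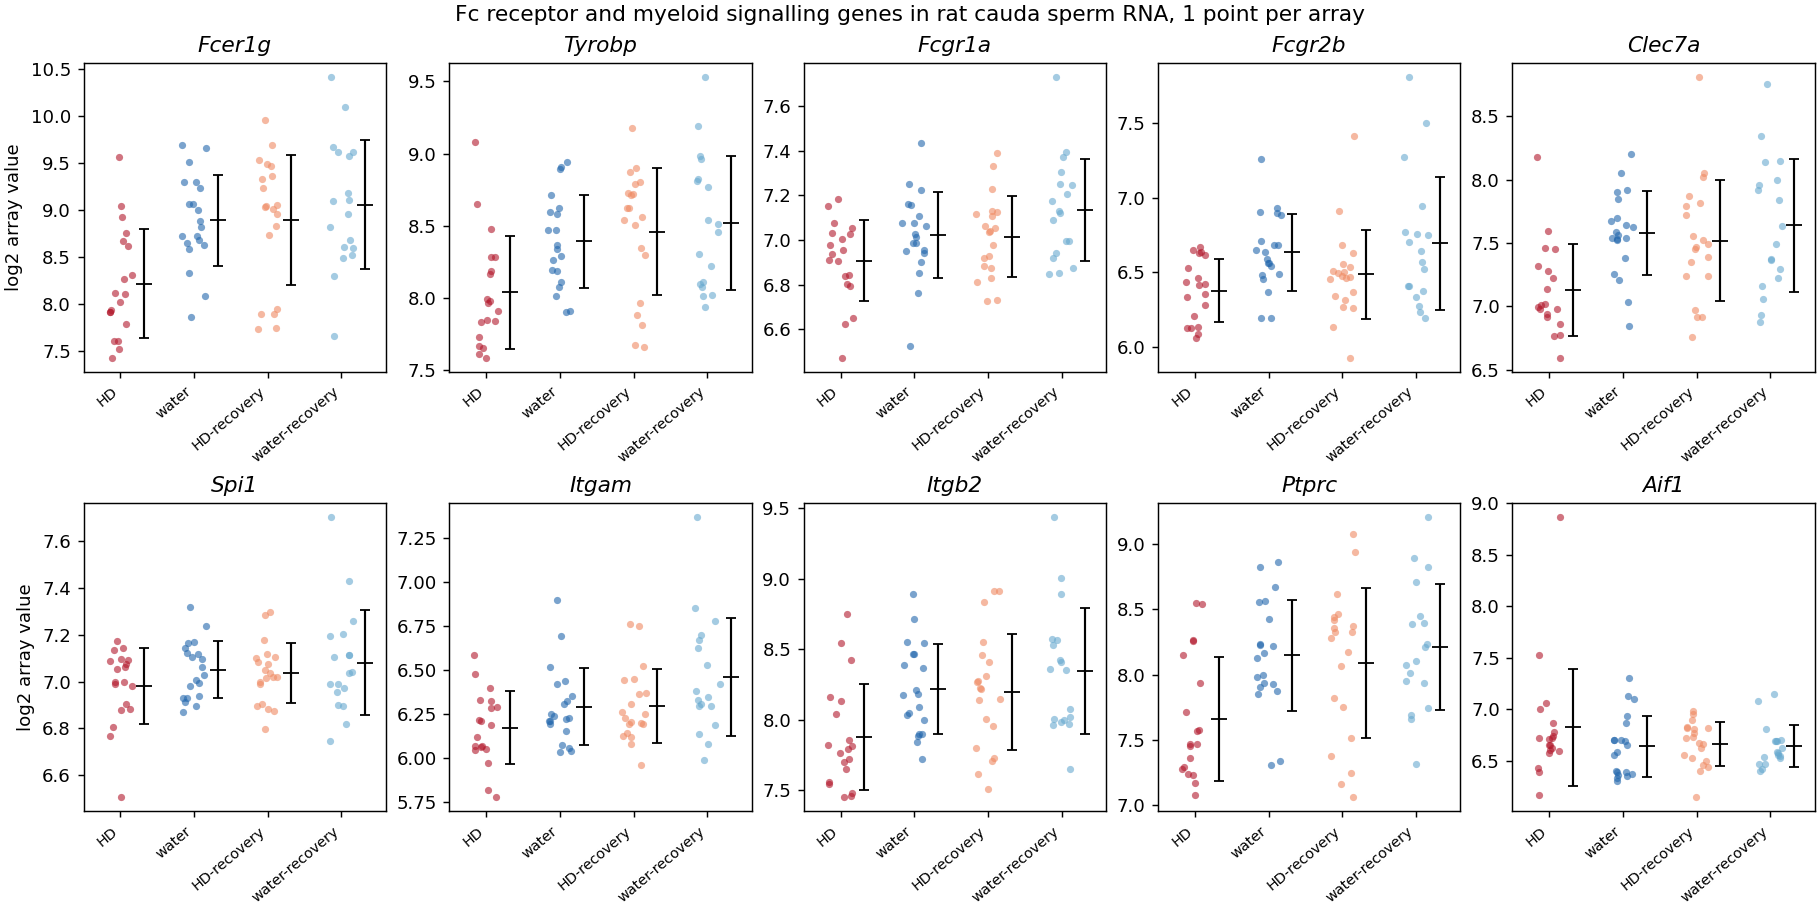
Each panel plots the log2 array value of 1 gene, 1 point for each array, for HD (19 arrays), water (20), HD-recovery (20) and water-recovery (18), and the bar beside each group is the mean ± SD. HD has the lowest group mean for 9 of the 10 genes, and Aif1 has its highest mean in HD, where 1 array lies at 8.87.

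The other adaptor chain, Tyrobp (DAP12), which pairs with receptors of the TREM and killer-cell lectin families, also had a lower mean in HD, without passing the test. Tyrobp had a lowest, median and highest value of 7.58, 7.96 and 9.08 in HD, against 7.90, 8.35 and 8.94 in water, and 8 of 19 HD arrays lay below the lowest water array. Its mean was 8.04 ± 0.39 in HD (SD, n = 19) and 8.39 ± 0.32 in water (SD, n = 20), with a log2 difference of −0.35 (SE 0.11, limma, q = 0.165). The highest HD value was that of replicate 14, which was also the highest HD array for 5 of the 10 genes and 1 of the 4 HD arrays that stood apart. Without HD replicate 14, Tyrobp had −0.41 (limma, q = 0.0196), and 5 of the 10 genes passed: Fcer1g, Tyrobp, Clec7a, Itgb2 and Ptprc. In that fit 1.29% of all probe sets passed, against 0.472% with all arrays.

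The Fc receptors themselves had smaller log2 differences, and neither passed. Fcgr2b, the inhibitory receptor for antibody complexes, had a lowest, median and highest value of 6.06, 6.41 and 6.67 in HD, against 6.19, 6.61 and 7.26 in water. No HD array reached the upper part of the water range, and 8 of 20 water arrays lay above the highest HD array. Its log2 difference was −0.26 (SE 0.07, limma, q = 0.117). Fcgr1a, the high-affinity receptor for IgG that signals through the gamma chain of Fcer1g, had a lowest, median and highest value of 6.47, 6.94 and 7.18 in HD, against 6.52, 7.02 and 7.43 in water. Its log2 difference was −0.11 (interval −0.24 to 0.01, limma, q = 0.659), so no difference was shown between HD and water, and the interval allows one of up to −0.24.

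Among the surface proteins of leukocytes, Ptprc, the phosphatase CD45 that all white blood cells carry and that sets the activity of Src kinases, had the second largest log2 difference of the 10. Ptprc had a lowest, median and highest value of 7.08, 7.47 and 8.55 in HD, against 7.30, 8.15 and 8.86 in water. Most HD arrays were low, with 14 of 19 below the water median, and the 2 highest HD arrays were replicates 4 and 14. The mean was 7.66 ± 0.48 in HD (SD, n = 19) and 8.15 ± 0.42 in water (SD, n = 20), a log2 difference of −0.49 (SE 0.14, limma, q = 0.105). Itgb2, the integrin beta chain CD18, had a lowest, median and highest value of 7.45, 7.79 and 8.75 in HD, against 7.72, 8.18 and 8.89 in water. For Itgb2, 8 of 19 HD arrays lay below the lowest water array, and the log2 difference was −0.34 (SE 0.11, limma, q = 0.172). Itgam, the alpha chain CD11b that pairs with Itgb2 to form complement receptor Mac-1, had a lowest, median and highest value of 5.78, 6.19 and 6.58 in HD, against 6.03, 6.23 and 6.90 in water. The Itgam ranges overlapped over most of their length, and its log2 difference was −0.12 (interval −0.26 to 0.02, limma, q = 0.717).

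Spi1, which encodes PU.1, had a lowest, median and highest value of 6.51, 7.00 and 7.17 in HD, against 6.87, 7.05 and 7.32 in water. The lowest Spi1 array was HD replicate 5, and the log2 difference was −0.07 (interval −0.17 to 0.03, limma, q = 0.818). Aif1 (Iba1), an actin-binding protein used as a marker of macrophages and microglia, was the 1 gene of the 10 whose mean was higher in HD. Its lowest, median and highest values were 6.17, 6.71 and 8.87 in HD, against 6.31, 6.62 and 7.30 in water. The mean was 6.82 ± 0.57 in HD (SD, n = 19) and 6.64 ± 0.30 in water (SD, n = 20), a log2 difference of 0.18 (interval −0.10 to 0.46, limma, q = 0.866). The highest Aif1 value was that of HD replicate 5, and without this array the log2 difference was 0.07 (limma, q = 0.551).

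**Figure D2:**
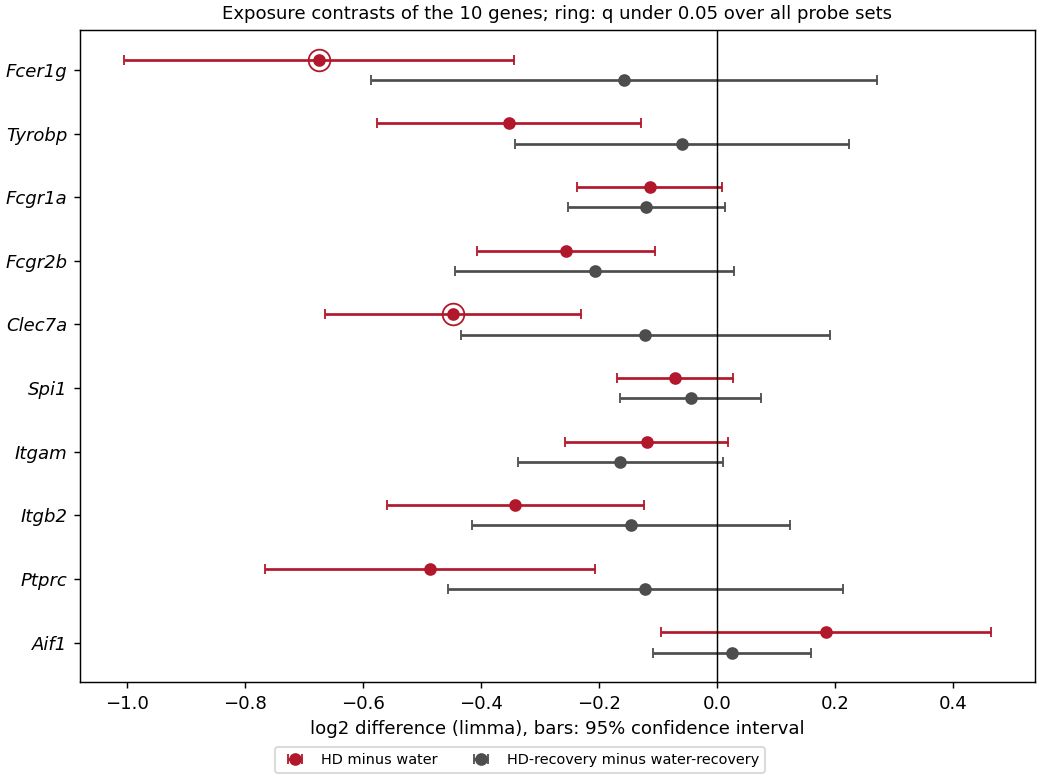
For each gene the log2 difference from limma and its 95% confidence interval are drawn for HD minus water (red) and HD-recovery minus water-recovery (grey), with a ring around differences at q under 0.05. In HD minus water 6 intervals lie wholly below 0, and all 10 intervals of the recovery groups include 0.

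At the end of recovery no gene of the 10 passed, either at q under 0.05 or at an unadjusted p under 0.05, in HD-recovery against water-recovery. Over all probe sets 0% passed the q-value and 4.51% had an unadjusted p under 0.05. The log2 differences ran from −0.21 for Fcgr2b to 0.02 for Aif1, with a median of −0.12, against −0.0053 for all probe sets. Fcer1g had a lowest, median and highest value of 7.73, 9.04 and 9.96 in HD-recovery, against 7.66, 9.03 and 10.42 in water-recovery. The ranges coincided over most of their length. Its log2 difference was −0.16 (interval −0.59 to 0.27, limma, q = 1.00). Clec7a had a lowest, median and highest value of 6.76, 7.48 and 8.81 in HD-recovery, against 6.88, 7.56 and 8.76 in water-recovery. Its log2 difference was −0.12 (interval −0.43 to 0.19, limma, q = 1.00). The lower ends of these intervals were close to the differences measured after exposure, −0.68 for Fcer1g and −0.45 for Clec7a.

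Whether the exposure contrast itself changed was tested as the difference between HD minus water and HD-recovery minus water-recovery. None of the 10 genes passed, and none had an unadjusted p under 0.05, beside 0% and 3.38% of all probe sets. The value for Fcer1g was −0.52 (interval −1.06 to 0.03, unadjusted p = 0.0629 from limma), and those for Ptprc, Clec7a and Tyrobp were −0.37, −0.33 and −0.29. A smaller contrast after recovery was thus not shown for any of the 10 genes with all arrays in the fit. With array weights 4 of the 10 passed as lower, and without the arrays that stood apart 5 did. Under these settings 33.7% and 56.8% of all probe sets passed, in either direction.

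The recovery groups were also set against the earlier groups, with which they share no rats but from which they differ in age. In HD-recovery minus HD, 5 of the 10 genes were higher at an unadjusted p under 0.05, against 9.55% of all probe sets in either direction. None of the 10 passed q under 0.05, which 0.154% of all probe sets did. The values were 0.68 for Fcer1g (SE 0.19, limma, q = 0.122), 0.42 for Tyrobp, 0.43 for Ptprc, 0.39 for Clec7a and 0.32 for Itgb2. These are the same arrays labelled HD as in the exposure contrast, so the values are not separate evidence. With array weights, or without the arrays that stood apart, these 5 genes passed as higher, where 45.2% and 57.4% of all probe sets passed in either direction. In water-recovery minus water, none of the 10 passed, as for 0% of all probe sets, and Itgam alone had an unadjusted p under 0.05 (0.17, unadjusted p = 0.0369 from limma), which 4.7% of all probe sets had.

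Placed in order of their means, HD was the lowest of the 4 groups and water-recovery the highest for 9 of the 10 genes. The other 2 groups lay between them, with Fcer1g at 8.90 in HD-recovery and 8.89 in water. The step between HD-recovery and water was widest for Fcgr2b, at 6.48 in HD-recovery and 6.63 in water (0.53 pooled SD), which was more than its step between HD-recovery and HD (0.42 pooled SD). The neighbours water, HD-recovery and water-recovery differed by less than 1 pooled SD of the arrays for each of these 9 genes, with the largest step 0.60 SD, for Itgam. The group next to HD was water for Fcer1g, Tyrobp and Itgam, and HD-recovery for the rest of these 9 genes. The step from HD to that group was larger than 1 pooled SD for Fcer1g alone (1.26 SD). It was 0.99 SD for Tyrobp and 0.91 SD for Clec7a. Against water itself, 3 further genes differed by more than their pooled SD. They were Clec7a (−0.45, pooled SD 0.35), Fcgr2b (−0.26, pooled SD 0.24) and Ptprc (−0.49, pooled SD 0.45). For Aif1 the order ran from water-recovery and water, both at 6.64, to HD-recovery at 6.66 and HD at 6.82. The SD between rats was larger in HD-recovery than in HD for 7 of the 10 genes, for Itgam by a trace, and larger in water-recovery than in water for 9 of the 10. The SD of Fcer1g was 0.69 in HD-recovery and 0.69 in water-recovery, against 0.58 in HD and 0.49 in water. Aif1 went the other way, with an SD of 0.21 in HD-recovery and 0.20 in water-recovery, against 0.57 in HD and 0.30 in water. Water-recovery replicate 20 was the highest array of its group for 8 of the 10 genes and HD-recovery replicate 19 for 6.

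From rat to rat the genes fell into a close set, a looser set and Aif1. Correlations were taken over all 77 arrays on deviations from the group means, so that differences between groups do not enter, and 45 pairs were tested by permuting arrays within groups (100000 permutations, two-sided, adjusted by Benjamini-Hochberg). Fcer1g, Tyrobp, Clec7a, Itgb2 and Ptprc were correlated in each of their 10 pairs, with Pearson's r between 0.82 and 0.92 and Spearman's rho between 0.79 and 0.92. The adjusted permutation p was 2.37e-05 for r in all 10, which rests on 1e-05, the smallest p that these permutations can give, and 3.46e-05 or less for rho. Without the 2 arrays farthest from the median of the first gene of each pair, r lay between 0.79 and 0.93, and within single groups between 0.62 and 0.96. The closest pair was that of the adaptor chains, Fcer1g and Tyrobp, with r = 0.92 (rho = 0.92). The genes of the close set also had the highest means of the 10 genes in water, from 7.58 for Clec7a to 8.89 for Fcer1g. The means of the other genes in water ran from 6.29 for Itgam to 7.05 for Spi1, around the median array value of 6.72. Whether the level bears on r or on the log2 differences was not tested.

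Fcgr1a, Fcgr2b and Itgam were correlated with each other at r between 0.54 and 0.70 (rho 0.39 to 0.62, adjusted permutation p = 2.37e-05 for each r) and with the 5 close genes at r between 0.39 and 0.65. Fcgr2b and Itgam had r = 0.70, and Itgam and Itgb2, partners in Mac-1, had r = 0.65. Spi1 had r between 0.32 and 0.53 with these 8 genes, and all 8 passed (adjusted permutation p 0.0158 or less). Within single groups r ran from 0.25 to 0.82 among Fcgr1a, Fcgr2b and Itgam, from 0.06 to 0.85 between these and the 5 close genes, and from −0.08 to 0.73 for Spi1, whose values near 0 or below were in HD and water. Of the 45 pairs, 37 passed on r and 41 on rho. Array medians differed within groups, and after they were centred 42 pairs passed, and without the arrays that stood apart 42 did.

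**Figure D3:**
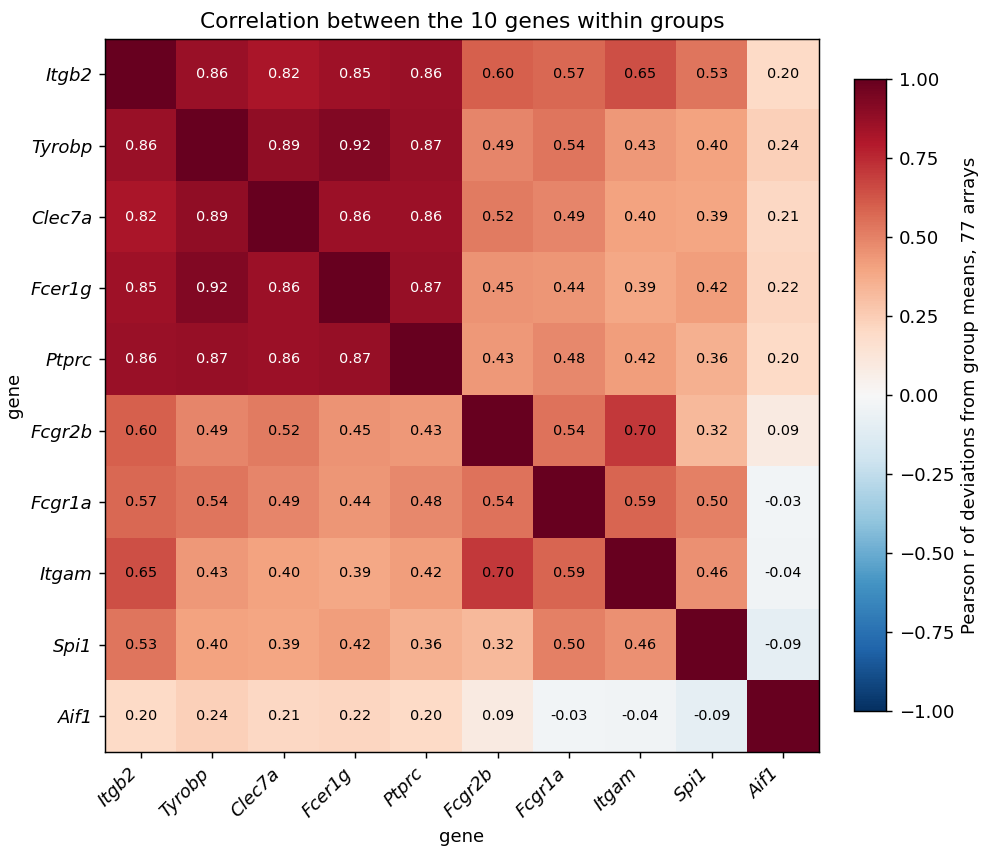
The colour and number of each cell give Pearson's r between 2 of the 10 genes over 77 arrays, on deviations from group means. The 5 genes at the upper left have r of at least 0.82 with each other, and Aif1, in the last row and column, has r between −0.09 and 0.24.

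Aif1 was less closely correlated with the other genes over all arrays, and its relation differed from group to group. Its r with the other 9 lay between −0.09 and 0.24, and 1 of the 9 pairs passed, that with Tyrobp (adjusted permutation p = 0.043). Within HD, r ran from −0.71 to −0.04, and within water from −0.23 to 0.53. Within HD-recovery it ran from 0.22 to 0.59 and within water-recovery from 0.52 to 0.85, positive with all 9 genes in both recovery groups. The difference between groups was not tested. By rank the relation was closer, with rho between 0.07 and 0.41 and 5 of 9 pairs passing. Each gene was also set against the mean of 10 measured macrophage markers (such as Cd68, Csf1r and Cx3cr1) and of 14 sperm and spermatid markers (such as Prm1, Tnp1, Odf1 and Akap4), in 20 tests adjusted together. The 9 other genes had r between 0.56 for Spi1 and 0.88 for Itgb2 with the macrophage markers, each with an adjusted permutation p of 2e-05. Other marker lists were not tested gene by gene. As a description, Fcer1g, Tyrobp and Ptprc had higher r with the NK cell and T cell marker lists, and Clec7a with the T cell list. Fcer1g and Tyrobp also had higher r with the erythroid list, 0.82 and 0.83, against 0.80 with the macrophage list for both. For Tyrobp r was 0.80 with macrophage, 0.86 with NK cell and 0.85 with T cell markers. Itgb2, Fcgr1a, Fcgr2b, Spi1 and Itgam had their highest marker r with the macrophage list. For Aif1, r with the macrophage markers was 0.05 (rho = 0.27, adjusted permutation p = 0.649 for r and 0.0191 for rho). Within groups this r was −0.48 in HD, −0.05 in water, 0.59 in HD-recovery and 0.73 in water-recovery. With the sperm markers, Aif1 had r = 0.73 and rho = 0.80 (adjusted permutation p = 2e-05 for both). This was 0.74 without the 2 arrays farthest from the median of the markers and between 0.57 and 0.83 within single groups. The lowest, 0.57, was in water-recovery, where Aif1 had the higher r with the macrophage markers (0.73). The 5 close genes also passed with the sperm markers, at lower r: 0.39 for Fcer1g, 0.42 for Tyrobp, 0.37 for Clec7a, 0.35 for Itgb2 and 0.34 for Ptprc (adjusted permutation p 0.00433 or less). Fcgr1a, Fcgr2b, Spi1 and Itgam did not pass. HD replicate 5, which set the Aif1 mean of its group, lay 2.04 above that mean for Aif1, 1.07 above it for the sperm markers and −0.28 from it for the macrophage markers. Without this array r for Aif1 was 0.75 with the sperm markers and 0.27 with the macrophage markers. HD replicate 5 also had the lowest array median in HD, 6.51, and the marker tests were not repeated with array medians centred.

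**Figure D4:**
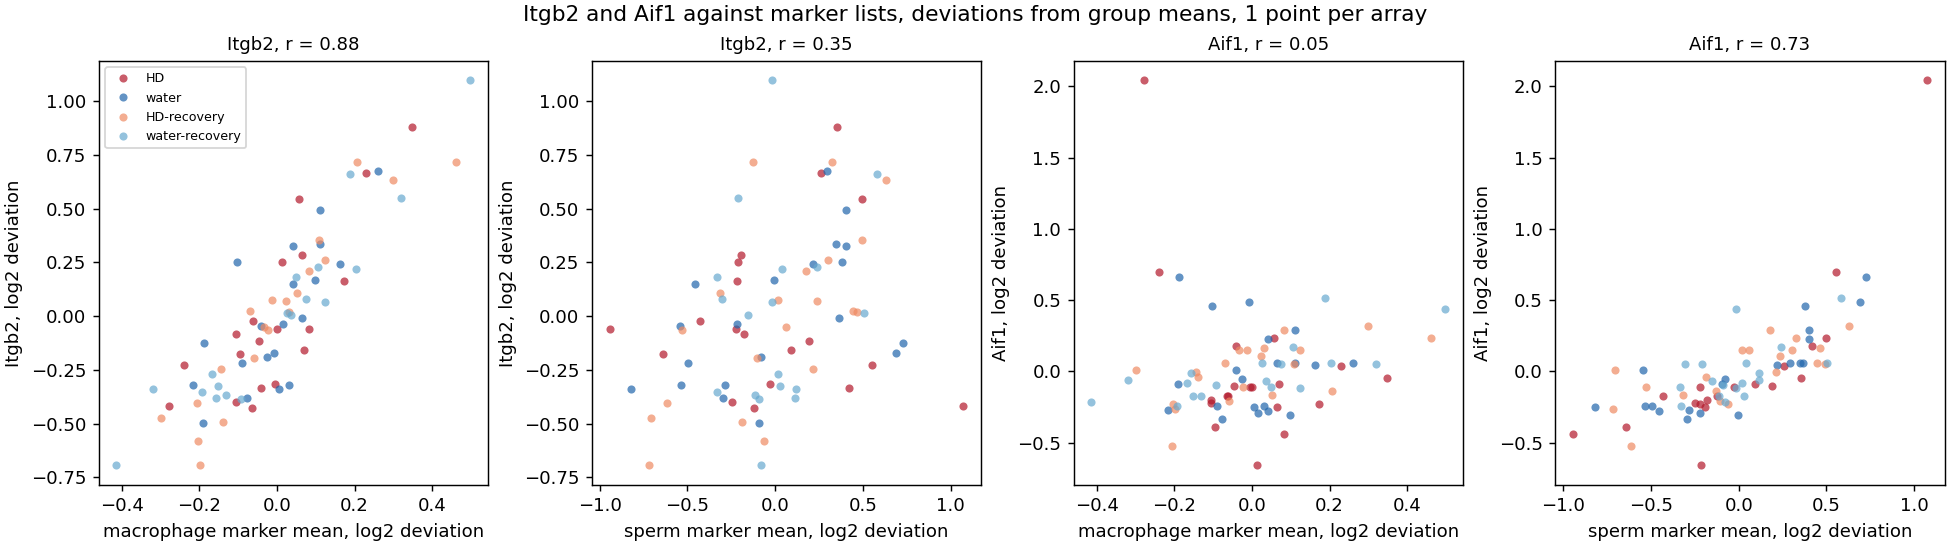
Deviations from group means on the log2 scale, 1 point for each of 77 arrays, are plotted for Itgb2 and Aif1 against the mean of the macrophage markers and against the mean of the sperm markers. Over all 77 arrays Itgb2 follows the macrophage markers (r = 0.88) and Aif1 the sperm markers (r = 0.73). Within water-recovery alone, Aif1 had the higher r with the macrophage markers. The single point at 2.04 is HD replicate 5.

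Of 14496 other genes with a single symbol, 5 were most like the 10 genes in their deviations over the 77 arrays, measured as r with the mean of the standardised 10 genes. They were Csf1r, the receptor for the macrophage growth factor, at r = 0.94, Cybb, the catalytic chain of the phagocyte oxidase, at 0.92, Adgre5 (CD97), an adhesion receptor of leukocytes, at 0.91, Apbb1ip (RIAM), which links Rap1 to integrins, at 0.90, and Zfp36, which destabilises cytokine mRNA, at 0.89. These values are a description. In HD against water they had log2 differences of −0.34, −0.52, −0.32, −0.28 and −0.38, and none passed (limma, q between 0.114 and 0.492).

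Downstream of the ITAM receptors, 18 of 20 listed enzymes and adaptors were measured, among them Syk, Src kinases and Vav1. None passed in HD against water, 16 of 18 had negative log2 differences and 6 had an unadjusted p under 0.05, all lower (4.91% of all probe sets were), with a median of −0.11. Of these 18, 2 passed with quantile normalisation, 9 with array weights and 11 without the arrays that stood apart, all lower. Of all probe sets 1.2%, 17.7% and 30.2% passed under these settings, in either direction. The genes of these lists that are named here were chosen after their values were seen. The 2 with the lowest q were Rac2, a GTPase of the phagocyte oxidase (−0.50, limma, q = 0.0636), and Lcp2 (SLP-76), an adaptor below Syk (−0.41, limma, q = 0.0792). Of 15 measured related receptors none passed (median −0.0030), and 1, the inhibitory receptor Sirpa, had an unadjusted p under 0.05 (−0.17). Of 9 measured leukocyte integrins and partners none passed (median −0.14), and 5 had an unadjusted p under 0.05, all lower, with Fyb1, an adaptor of integrin activation, at −0.33. Of 9 measured myeloid transcription factors none passed at either threshold (median −0.03). After recovery none of these 4 lists had a gene at q under 0.05.

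Some markers of other cell types were also lower in HD. Of 10 measured macrophage markers, 2 fell in HD and none rose (median −0.11): Lyz2, a lysozyme, with a log2 difference of −0.95 (limma, q = 0.0423), and Cx3cr1, the fractalkine receptor, with −0.36 (limma, q = 0.00476). The mean of the list ran from 6.99 to 7.61 in HD arrays, against 7.25 to 7.72 in water arrays. Of 8 T cell markers 2 fell, Cd4 (−0.56, limma, q = 0.0356) and Cd5 (−0.27, limma, q = 0.0294), with a list mean of 6.43 to 7.11 in HD, against 6.68 to 7.24 in water (median log2 difference −0.19). Cd4 was itself close to the 10 genes over the arrays, at r = 0.88 with their standardised mean. Of 5 measured erythroid markers 1 fell, Ahsp, the chaperone of alpha globin (−0.25, limma, q = 0.0274), with a list mean of 6.74 to 7.77 in HD, against 7.00 to 7.93 in water. Ahsp averaged 4.94 in HD and 5.19 in water, below the median array value of 6.72. All 5 had negative log2 differences (median −0.25). At an unadjusted p under 0.05 (limma), 4 were lower, as were 4.91% of all probe sets. Hbb, the brightest of the 5, averaged 10.36 in HD and 11.21 in water without passing q under 0.05. Of 6 fibroblast markers 1 fell, Dcn, the matrix proteoglycan decorin (−1.09, limma, q = 0.00917), and the median was −0.03. Of 14 sperm and spermatid markers 1 fell, Odf1 (−0.22, limma, q = 0.0445), while the list's median was 0.25 and its mean ran from 9.22 to 11.23 in HD, against 9.19 to 10.74 in water. Odf1 is thus a member whose sign differs from that of its list's median, and it was not the only one. Of the 14 markers 5 had negative and 9 positive log2 differences, so the list mean joins genes of both signs. None passed of 9 neutrophil (median −0.02), 3 measured B cell (−0.04), 5 NK cell (−0.22), 5 mast cell (−0.02), 8 epididymal epithelium (−0.08) and 4 measured endothelium markers (0.03). The marker calls also moved with the settings. With array medians centred 1 macrophage marker, no T cell marker and no sperm marker passed, while the erythroid and fibroblast lists each still had 1 call. With array weights 5 macrophage and 6 T cell markers passed as lower, and of the sperm markers 5 passed as lower and 6 as higher. Of all probe sets 0.216% and 17.7% passed under these 2 settings.

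Over the 77 arrays, the mean of the 10 genes had r = 0.92 with the macrophage list, 0.82 with the T cell list, 0.79 with the erythroid list and 0.78 with the NK cell list. It had r = 0.35 with the sperm list, −0.29 with the mast cell list and −0.43 with the endothelium list. These are deviations from group means that share arrays and scale, given as a description. The part that other cell types had in the differences of the 10 genes was not tested.

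**Figure D5:**
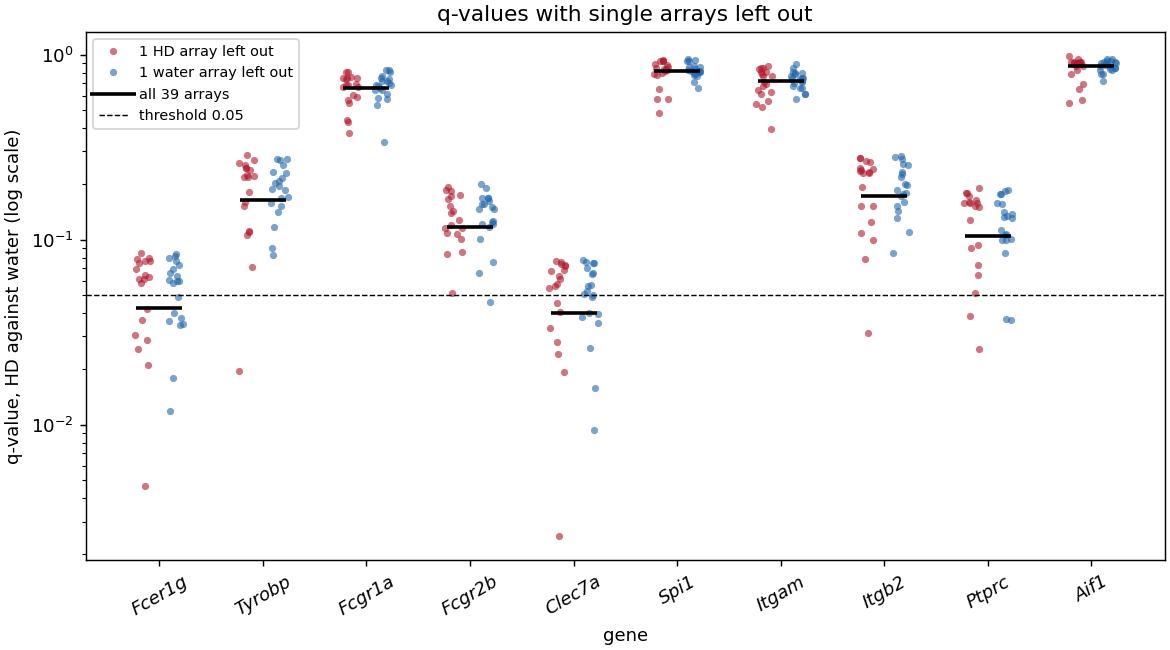
The q-value of HD against water (log scale) is plotted for each gene with 1 HD array (red) or 1 water array (blue) left out, beside the value with all 39 arrays (black bar) and the threshold of 0.05 (dashed line). Fcer1g and Clec7a lie on both sides of the line, Tyrobp, Fcgr2b, Itgb2 and Ptprc cross it in 1 to 4 fits, and the other 4 genes stay above it.

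The calls in HD against water also moved with the scaling and with the arrays kept. None of the 10 passed after array medians were centred (0.216% of all probe sets passed) or with all 4 groups in 1 fit (0.756%). After quantile normalisation 5 passed (1.2% of all probe sets): Fcer1g, Tyrobp, Clec7a, Itgb2 and Ptprc. With array weights 6 passed (17.7%), and without the arrays that stood apart 6 passed (30.2%), in both cases these 5 and Fcgr2b, all lower. Without the arrays that stood apart, Fcer1g had a log2 difference of −0.82 and Clec7a of −0.56. Under the same 2 settings none of the 10 passed in HD-recovery against water-recovery, where 1.8% and 13.1% of all probe sets passed. Without the arrays that stood apart, 4 of the 9 negative values of HD-recovery minus water-recovery turned positive, at 0.13 for Fcer1g, 0.13 for Tyrobp, 0.05 for Clec7a and 0.02 for Ptprc. Most arrays left out lay off their group mean for Fcer1g. HD-recovery replicates 2, 9 and 16 lay at −1.16, −1.17 and −0.95. Water-recovery replicates 12 and 15 lay at 1.04 and 0.52. HD replicates 3, 4, 5 and 14 lay at 0.40, 0.71, −0.30 and 1.35, and water replicate 20 at −0.0038. The values of this setting therefore depend on which arrays were left out. In HD minus water the sign of each of the 10 genes was the same under all settings tried.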

How the data were processed

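RNA of cauda sperm from each rat was hybridised to Affymetrix Rat Gene 1.0 ST arrays. The authors deposited 1 table of 29214 probe sets on 77 arrays, whose values (2.51 to 14.63) were taken as log2 intensities. The sources used here do not give the authors' normalization steps or versions, and limma is named in the submitters' processing notes. Gene symbols came from the platform annotation, in which 15310 probe sets carried 1 symbol, and the brightest was used for each gene. Groups followed the labels. Each exposed group was fitted with its own control, as in the paper's methods, by limma 3.58.1 in R 4.3.3 over all probe sets, and comparisons between times and the difference of contrasts came from a fit of all 4 groups. Storey q-values under 0.05 were called, and the scripts were tested on simulated data. Permutations used numpy 2.4.6.

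The 10 genes, the 4 pathway lists and the 11 marker lists were chosen with earlier results of these data known. From the lists, genes at q under 0.05 in HD against water were named (at most 6 for each list), with the 5 genes most like the 10. Alternatives were Benjamini-Hochberg adjustment, scaling, array weights, a trended or robust prior, brighter probe sets, 1 fit of all groups, the replicate number as a block, and arrays left out. The labels call the arrays biological replicates. The limma p-values set differences of group means against the spread between these rats, and the permutation p-values come from permuting arrays within groups. Promoter sequences are from RefSeq (GRCr8), in which 3 of the 10 genes matched.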

Additional observations from a re-analysis of the deposited data

How the results depend on the processing

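In HD against water 2 of the 10 genes passed, and still 2 with Benjamini-Hochberg adjustment, a trended or robust prior, and brighter probe sets alone. None passed with all 4 groups in 1 fit or with array medians centred, 5 passed with quantile normalisation, 6 with array weights and 6 with the outlying arrays (those that stood apart) left out. Of all probe sets 0.756%, 0.216%, 1.2%, 17.7% and 30.2% passed under these settings, in that order. The difference of the contrasts gave 4 with array weights and 5 with the outlying arrays left out (33.7% and 56.8% of all probe sets). HD-recovery against HD gave 5 with each (45.2% and 57.4% of all probe sets). In both contrasts none of the 10 passed with all arrays. The cause was not tested. The replicate number as a block (replicate block) left 2 genes called in HD against water. The consensus correlation of equal numbers was 0.06 in HD and water, 0.12 in the recovery groups and −0.0074 over all arrays, and the labels give the numbers no shared litter or day, so arrays share a number only. Without single arrays 0 to 5 genes passed in HD against water and 0 to 2 in HD-recovery against HD. The other 3 contrasts stayed at 0 in all such fits.

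In HD against water none of the 10 passed without any 1 of HD replicates 1, 2, 7, 8, 9, 11, 12, 16, 17, 18, 19 and 20 or water replicates 2, 3, 4, 7, 9, 10, 13, 14, 19 and 20. Clec7a was lost without water replicate 1 or 6, and Fcer1g without water replicate 8 or 18. More genes passed without HD replicate 14 (5), water replicate 15 (4), HD replicate 4 (3) or water replicate 12 (3). The count over all probe sets ran from 76 to 376 in these fits. Fcer1g passed in HD-recovery against HD without HD-recovery replicate 2 or 9, and Fcer1g and Tyrobp without HD replicate 14. The correlated pairs, 37 of 45, numbered 42, 43 and 42 with array medians centred, quantile normalisation and the outlying arrays left out, alternatives chosen after seeing the data.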
